A study of Homo sapiens with 6 samples.

Results

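The comparison of cells given miR-106a-5p with control cells covered 12360 annotated genes, those with a mean of at least 0.5 FPKM over the 6 libraries, out of 19974 annotated rows and 24872 rows in the table. The choice used only this mean and no difference between the groups, but it was made with earlier results of these data known. A gene could also reach the mean through 1 group alone, as BHLHE40 did through mimics and RGMA through NC. RNA was sequenced from 22RV1, an immortal human line derived from prostate cancer that no longer needs androgen to grow. The series title places the long noncoding RNA MAGI2-AS3, the microRNA miR-106a-5p and the small GTPase RAB31 in a single axis in this cancer. All groups were kept in the same medium and sampled at day 2: the control called NC (2 libraries), cells with miR-106a-5p, called mimics in the titles (2 libraries), and cells overexpressing MAGI2-AS3, called OE (2 libraries), which serve here as the other treated group. The treatment text mentions overexpression plasmids while the titles mention mimics, so the form of delivery is uncertain, and the labels do not say what NC contains. Nothing says that the libraries of a group came from separate cultures, so p-values reflect differences among single libraries, perhaps technical ones.

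A microRNA guides an Argonaute protein to messenger RNAs that pair with its seed, the bases near its 5′ end, and the paired messengers are translated less and often degraded. Matches to the seed in the 3′ untranslated region (UTR) are the best studied, and an adenine opposite the first base strengthens them. miR-106a-5p belongs to the miR-17 family, known for targets that restrain the cell cycle and for high levels in many cancers.

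The mature sequences of the family are printed because they share the seed that every site below is matched to, with that seed (bases 2 to 8) in capitals. They are RefSeq sequences of GRCh38.p14, and the gene of miR-106a-5p lies on the minus strand of chromosome X, with the mature bases at 134170244 to 134170266.
hsa-miR-106a-5p: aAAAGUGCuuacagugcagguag
hsa-miR-17-5p: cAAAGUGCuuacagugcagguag
hsa-miR-20a-5p: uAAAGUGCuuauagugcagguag
hsa-miR-20b-5p: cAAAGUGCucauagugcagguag
hsa-miR-93-5p: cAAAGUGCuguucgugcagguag
hsa-miR-106b-5p: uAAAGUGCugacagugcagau

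A site counted as an 8mer where the UTR of the transcript holds GCACTTTA, as a 7mer-m8 for GCACTTT, as a 7mer-A1 for CACTTTA and as a 6mer for CACTTT, read on the transcript's own strand only, with the longest match deciding the class of a gene. The sites below lie in genes that the results turn on: RAB31, which the series names, 8mer genes that fell most, and reported targets that rose or fell. Each is written 5′ to 3′ on the transcript's strand with 10 bases on either side, the match in capitals.
RAB31: ggaagtgtcaGCACTTTAaaattctaga
EPHA4: cctcatccatGCACTTTAattgaagaac
RGMA: aaaaagtgaaGCACTTTAttttggttgt
KIF23: ctgcaagaatGCACTTTAgaactatttg
COQ2: acgggttttgGCACTTTAgaaaaagcct
MKNK2: aaacatccaaGCACTTTAattccaatgt
EGLN3: aaccttacttGCACTTTAtgtatacttc
TXNIP: gatgttcttaGCACTTTAattcctgtca
E2F3: gatgacaccaGCACTTTAaactctttgt
CDKN1A: taaacagatgGCACTTTgaaggggcctc
VEGFA: tctgcgcagaGCACTTTgggtccggagg
On GRCh38, with GENCODE 29 transcripts, the RAB31 match is at chr18:9860324-9860331 on the plus strand, 999 bases into a 3′ UTR of 3226 bases. The EPHA4 match at chr2:221425970-221425977 on the minus strand begins 51 bases into its UTR, and a 7mer-m8 follows at base 70. The RGMA match is at chr15:93043565-93043572 on the minus strand.

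Genes with the strongest seed matches did not lie lower as a class in the mimics libraries. Of 594 tested genes with an 8mer in the 3′ UTR of their principal transcript, 26 rose and 11 fell, or 1.85% lower, against 301 of 6665 genes with no match, or 4.52% lower. Over all annotated genes tested, 4.5% passed as higher and 4.06% as lower, so the share of falls among 8mer genes was below the background. A call here is a Benjamini-Hochberg adjusted p under 0.05 from limma. The median log2 change was 0.02 for 8mer genes and -0.01 for genes without a match. Against the NC mean it was -0.03 in the first mimics library and 0.04 in the second for 8mer genes, and -0.06 and 0.05 for genes without a match. The 2 classes thus differed in opposite directions in the 2 libraries, by 0.03 and -0.01.

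Pooled over UTR lengths, the intermediate classes gave the same picture. Of 2101 genes with a 7mer-m8 as their best match, 70 rose and 76 fell, of 718 with a 7mer-A1, 27 rose and 24 fell, and of 2050 with a 6mer, 105 rose and 79 fell. Taken over 12128 genes with an annotated 3′ UTR, 1173 genes with 2 or more matches of at least 7 bases had 31 rises and 31 falls, with a median log2 change of -0.0002, and 2240 genes with 1 match had 92 rises and 80 falls, with a median of 0.002. Genes with an 8mer have long UTRs (median 3103.5 bases, against 549 without a match). Among genes with UTRs of 1807 to 32870 bases, 8 of 448 8mer genes fell (1.79%), as did 23 of 799 without a match (2.88%). Shorter UTRs were less uniform. From 30 to 594 bases, 9 of 129 7mer-m8 genes fell (6.98%) and 2 rose. Of 65 7mer-A1 genes there, 5 fell (7.69%) and 1 rose, against 4.71% falls without a match. The 8mer genes of that band had 1 fall and 4 rises. From 595 to 1806 bases, 5.2% of 7mer-m8 genes fell, 2.46% of 7mer-A1 genes and 4.78% without a match. These differences were not tested. Many 7mer-m8 sites are followed by the letters of the Alu repeat, whose consensus contains the match. Outside chromosome 8, whose sites were not examined for this, the 552 genes whose matches were all of this kind gave 20 rises and 22 falls, and the 1466 genes with at least 1 other match gave 44 and 53.

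**Figure D1:**
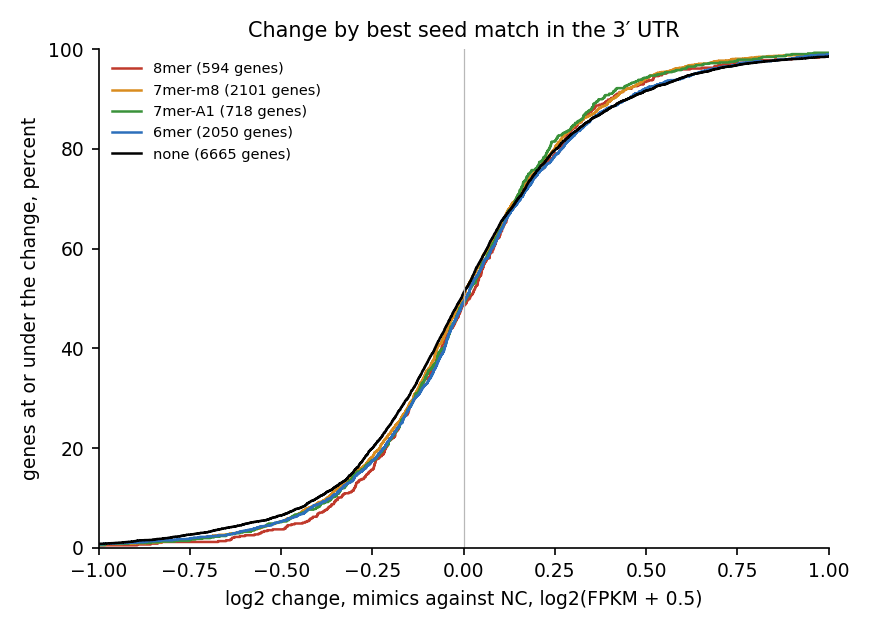
Cumulative share of genes (y axis) by log2 change of mimics against NC (x axis) for genes classed by their best miR-106a-5p seed match in the 3′ UTR. The curves of the 594 8mer genes and of the 6665 genes without a match run close together, with medians of 0.02 and -0.01.

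RAB31, a Rab protein that directs vesicles between the Golgi and endosomes and whose UTR holds the 8mer printed above, was higher in both mimics libraries. Its level was 1.85 and 1.60 FPKM in NC, 4.82 and 5.18 FPKM in mimics and 0.98 and 0.986 FPKM in OE. Both mimics libraries lay above every other library. The log2 change against NC was 1.31 (SE 0.16, limma adjusted p = 0.00356), and against OE it was 1.89 (adjusted p = 0.000619). MAGI2, the scaffold protein gene that overlaps MAGI2-AS3 on the other strand and carries a 7mer-m8, was measured at 0.61 and 0.849 FPKM in NC and at 1.12 FPKM in both mimics libraries. Its change of 0.40 (SE 0.19, adjusted p = 0.220) did not pass, and reads of the 2 overlapping genes cannot be told apart because the sources used here do not give the use of strand in counting.

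The 6 8mer genes with the largest falls were EPHA4, RGMA, GINS4, KIF23, COQ2 and C21orf58. EPHA4, an ephrin receptor kinase, was at 10.3 and 10.1 FPKM in NC and at 0.80 and 0.388 FPKM in mimics, a log2 change of -3.32 (SE 0.21, adjusted p = 0.000206). RGMA, a repulsive guidance molecule and bone morphogenetic protein coreceptor, was at 2.94 and 3.22 FPKM in NC and at 0.0743 and 0.181 FPKM in mimics, a log2 change of -2.52 (SE 0.21, adjusted p = 0.000811). Both genes were also low in the OE libraries, for which the labels name no microRNA. There EPHA4 was at 0.579 and 0.499 FPKM and RGMA at 0.0512 and 0.201 FPKM, so that mimics and OE differed by 0.05 (95% interval -0.42 to 0.52, adjusted p = 0.904) and 0.01 (95% interval -0.46 to 0.49, adjusted p = 0.983) on the log2 scale.

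The other 4 did not pass in OE against NC. KIF23, a kinesin of the central spindle in dividing cells, was at 32.3 and 26.9 FPKM in NC, 27.5 and 26.8 FPKM in OE and 15.3 and 16.0 FPKM in mimics, a log2 change of -0.89 against NC (adjusted p = 0.0042) and -0.78 against OE (adjusted p = 0.00748). COQ2, an enzyme of coenzyme Q synthesis, was at 16.7 and 17.3 FPKM in NC, 15.0 and 14.3 FPKM in OE and 9.16 and 9.43 FPKM in mimics, a log2 change of -0.84 (adjusted p = 0.004). GINS4, a subunit of the replicative helicase, fell by 1.02 in log2 units against NC (adjusted p = 0.0427) and by 1.04 against OE (adjusted p = 0.039). C21orf58, at 20.3 and 17.7 FPKM in NC, 16.3 and 17.0 FPKM in OE and 8.58 and 12.8 FPKM in mimics, fell by 0.83 in log2 units (adjusted p = 0.0245), and its change against OE was -0.64 (adjusted p = 0.0572).

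Among 58 tested genes from a list of 60 reported targets of the miR-17 family, 8 rose and 3 fell, with a median log2 change of 0.06. Over all annotated genes 4.5% rose and 4.06% fell, so the falls were near the background. The list was chosen with earlier results of these data known and includes RAB31, so its counts are a description only. The 8 that rose were CDKN1A, MKNK2, VEGFA, EGLN3, TP53INP1, RAB31, KLF9 and TXNIP, and EPHA4 and E2F3 were among the 3 that fell. CDKN1A encodes p21, an inhibitor of cyclin-dependent kinases and one of the family's best studied targets, and its UTR holds a pair of 7mer-m8 matches. It was at 59.9 and 68.4 FPKM in NC, 69.0 and 74.2 FPKM in OE, and 262 and 191 FPKM in mimics, a log2 change of 1.80 (SE 0.15, adjusted p = 0.000854). MKNK2, a kinase that phosphorylates the cap-binding protein eIF4E, was at 49.3 and 47.1 FPKM in NC and at 180 and 131 FPKM in mimics, a log2 change of 1.66 (adjusted p = 0.000881). E2F3, a transcription factor of S-phase entry, was at 7.18 and 6.92 FPKM in NC and at 3.63 and 5.11 FPKM in mimics, a fall of 0.65 on the log2 scale. The long-reported target E2F1 did not pass and was at 41.1 and 43.1 FPKM in NC and 27.7 and 37.5 FPKM in mimics. None of 26 genes of microRNA processing and silencing passed, where 8.56% of all annotated genes did in either direction. The nearest was MCM7, the helicase subunit whose introns host miR-106b and miR-93, at 203 and 222 FPKM in NC and 114 and 165 FPKM in mimics (log2 change -0.63, adjusted p = 0.0541).

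**Figure D2:**
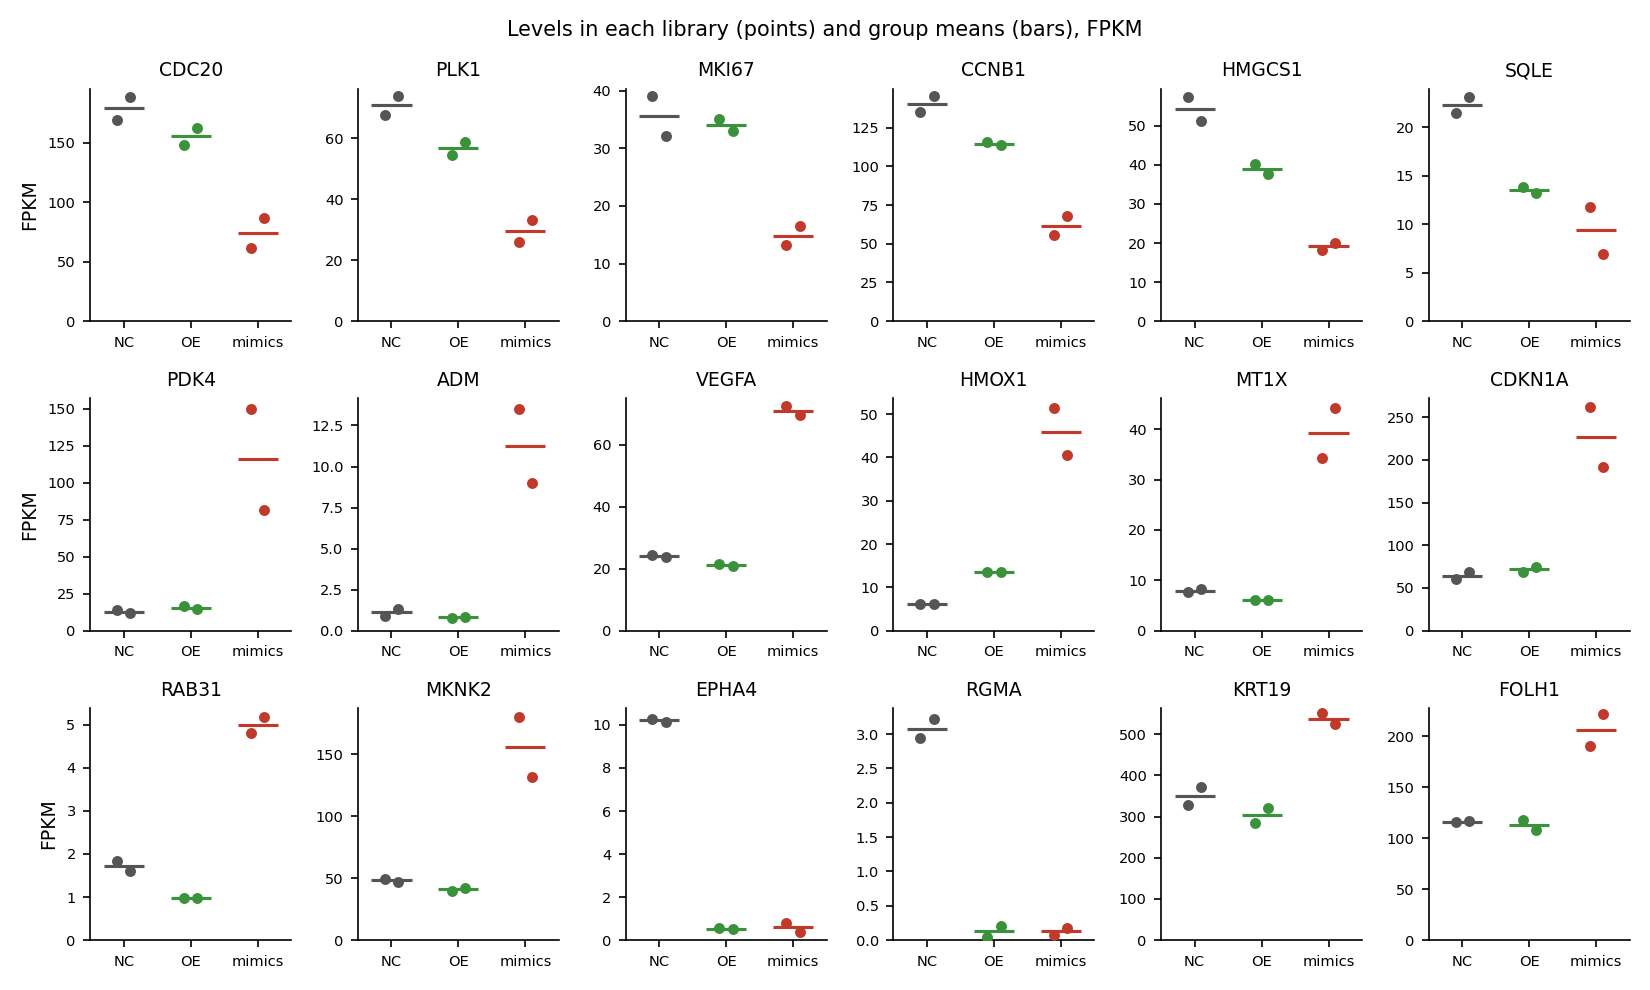
FPKM (y axis, from 0) of 18 genes in each of the 6 libraries, with a point per library and a bar at the mean of each group (NC, OE, mimics). RAB31, CDKN1A and VEGFA lie higher in both mimics libraries than elsewhere, while EPHA4 is low in both OE and mimics.

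Over all genes the mimics libraries stood apart from NC in both directions. In the limma fit, 556 annotated genes rose and 502 fell, which is 8.56% of those tested, and 131 of the rises and 82 of the falls exceeded 1 on the log2 scale. The 2 libraries of each group did not overlap for 54.3% of genes. Against OE, 697 genes were higher in mimics and 342 lower (8.41%), whereas OE against NC gave 2 higher and 33 lower (0.283%). The comparisons share libraries.

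The counts depended on the controls and on the scaling. Any fit that left out a library took its spread from the other groups alone. Without a mimics library it thus missed the mimics spread (median absolute log2 difference 0.192, against 0.124 for NC and 0.101 for OE), so more calls there do not show stability. Named genes were chosen with NC and mimics libraries that did not overlap, so leaving out 1 library could not turn their direction. Without NC replicate 1 there were 40 rises and 25 falls, without NC replicate 2 there were 75 and 79, without either OE library 288 or 289 and 279, without mimics replicate 1 there were 742 and 495, and without mimics replicate 2 there were 1136 and 1688. Of 110 named genes that passed, all kept their direction when any 1 library was left out, and 25 kept their call without NC replicate 1, 36 without NC replicate 2, 81 and 82 without either OE library, 99 without mimics replicate 1 and 109 without mimics replicate 2. The 24 that kept it throughout were ACAT2, ADM, CCNB1, CDKN1A, CHGB, DDIT4, EPHA4, GDF15, GPNMB, HMGCS1, HMOX1, MKNK2, MT1G, MT1X, NDRG1, NQO1, P4HA1, PDK4, PFKFB3, PFKFB4, PLK1, RAB31, RGMA and VEGFA. In the lysosome, autophagy, clock, mesenchymal, epithelial, androgen, collagen and immediate early lists, at most 1 member rose without NC replicate 1 and at most 3 without NC replicate 2. Exons of many of the named genes overlap another gene, so their reads may include those of the neighbour. On the other strand this holds for EPHA4, CDKN1A, VEGFA, PLK1, HMGCS1, DDIT4, FTH1, NQO1, KIF23, GINS4, MCM7, TYMS, DBF4, CCNE2, EIF4G2, TUBB4B, ILF2, EGR3, RPL5, RPL4, ALDOC, ACAT2, FADS1, CTNS, GABARAPL1, NBR1, DERL3, CRELD2, PLPP1, ACTA2, ITGA5, LOX, CTGF, KRT7, PRSS8, P4HA1, P4HA2, SRSF2 and DBP. On their own strand it holds for RGMA, MT1X, ARL6IP1, PFKFB4 and PLPP1, on both for ALDOA and RPL36, and small RNA genes lie within exons of RPL5, RPL4, PABPC1, STMN1, EIF4G2, FADS1 and SRSF2.

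The mimics libraries also differed in composition, and from each other. The 13 mitochondrially encoded genes held 9.14% and 8.29% of all FPKM in NC, 6.23% in mimics replicate 1 and 0.533% in mimics replicate 2. With FPKM rescaled without these rows, 367 genes rose and 772 fell, and the median of all annotated genes moved from -0.004 to -0.09 on the log2 scale. Across genes, which are not independent replicates, the mimics libraries correlated at r = 0.982 with each other, against 0.992 for NC. MT-CO1, a subunit of cytochrome c oxidase, was at 8653 and 8502 FPKM in NC but at 6085 and 345 FPKM in mimics, so no mitochondrially encoded gene passed (median log2 change -0.39 in replicate 1 and -4.00 in replicate 2). GAPDH differed as well, at 528 and 1717 FPKM in mimics against 2023 and 2341 FPKM in NC, and KLK4, a prostate kallikrein, at 141 and 344 FPKM against 213 and 230 FPKM. Neither was called.

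**Figure D3:**
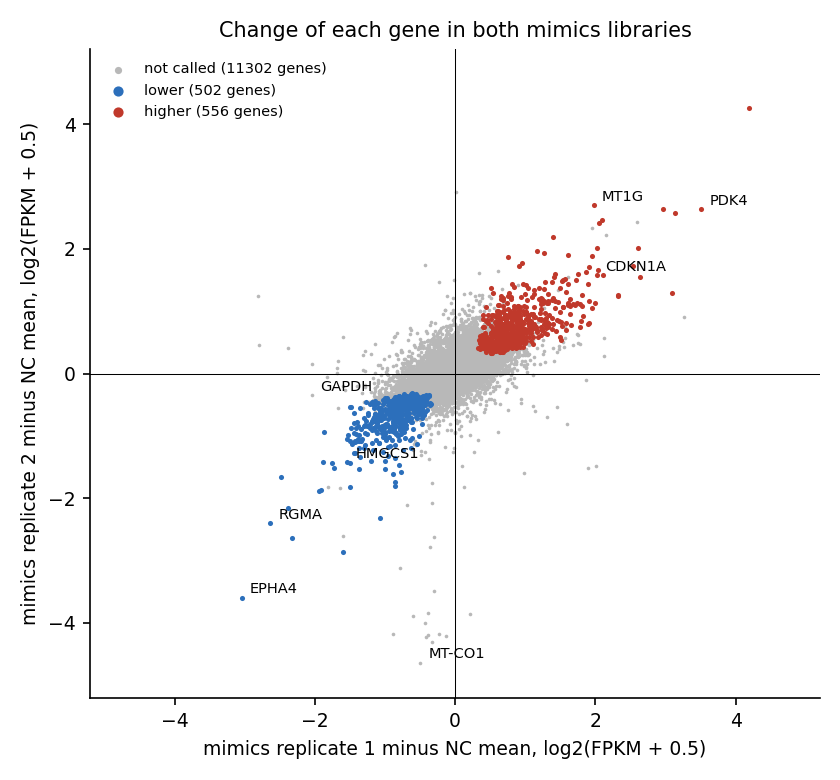
Change of each annotated gene in mimics replicate 1 (x axis) and in mimics replicate 2 (y axis) against the NC mean, in log2(FPKM + 0.5), coloured by call. The 556 rises and 502 falls lie in the quadrants where both libraries moved the same way, and MT-CO1 and GAPDH, whose falls differ widely between the mimics libraries, were not called.

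**Figure D4:**
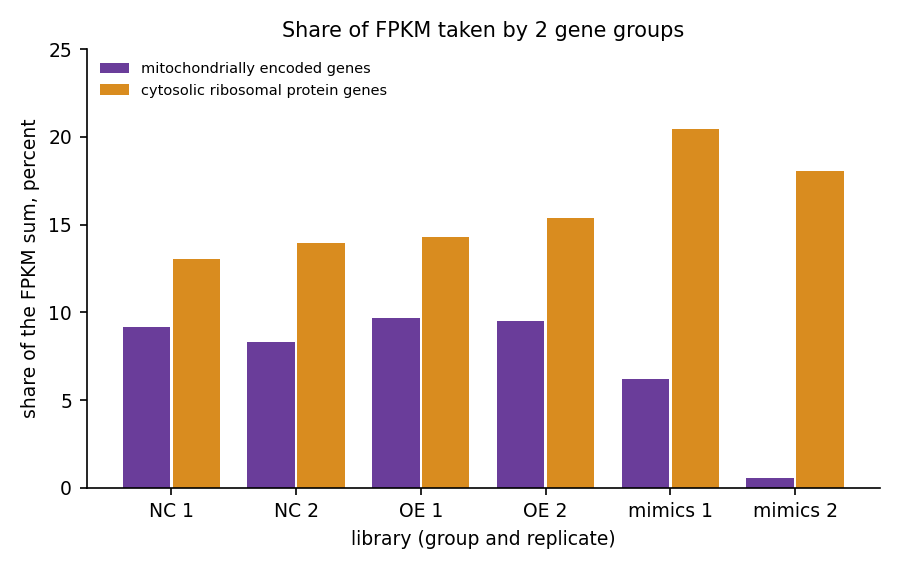
Percent of all FPKM (y axis) held by mitochondrially encoded genes and by cytosolic ribosomal protein genes in each library. The mitochondrial share is 0.533% in mimics replicate 2 against 6.23% in mimics replicate 1, and the ribosomal share is higher in both mimics libraries than in NC or OE.

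In absolute level, the largest rises among genes that passed were those of EEF2, FTH1, RPL5, RPL4, ALDOA, RPS27, CKB, PABPC1, FTL and RPL36, most of which act in translation, iron storage or energy supply. EEF2, the elongation factor that moves the ribosome along its message, was at 927 and 1046 FPKM in NC and at 2213 and 1606 FPKM in mimics (log2 change 0.94, adjusted p = 0.0256). PABPC1, the poly(A)-binding protein, was at 422 and 518 FPKM in NC and at 769 and 702 FPKM in mimics (log2 change 0.65, adjusted p = 0.0338). The largest falls in level among genes that passed were those of ACTB, HMGN2, TUBB4B, STMN1, EIF4G2, HMGB1, CDC20, ARL6IP1, YWHAQ and ILF2, among them cytoskeletal and chromatin proteins. ACTB, cytoplasmic actin and a common reference gene, was at 1345 and 1514 FPKM in NC, 1004 and 1380 FPKM in OE, and 765 and 879 FPKM in mimics (log2 change -0.80, adjusted p = 0.0411). STMN1, which destabilises microtubules, was at 292 and 323 FPKM in NC and at 180 and 190 FPKM in mimics (log2 change -0.73, adjusted p = 0.00824). EIF4G2, a translation factor of cap-independent initiation, was at 267 and 278 FPKM in NC and at 159 and 163 FPKM in mimics (log2 change -0.76, adjusted p = 0.00663).

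Every gene of a list of 48 mitotic genes fell. This list, like all lists here, was chosen with earlier results of these data known, so its count is a description only. Beside the counts of each list stand the shares over all annotated genes, 4.5% higher and 4.06% lower. The log2 changes ran from -1.29 for CDC20, which switches on the ubiquitin ligase of anaphase, to -0.44 for CKAP5, a microtubule polymerase, with a median of -0.91, and 42 of the 48 were also lower than in OE. PLK1, the mitotic kinase, was at 67.7 and 73.7 FPKM in NC, 54.4 and 58.7 FPKM in OE, and 26.0 and 33.0 FPKM in mimics (log2 change -1.25, adjusted p = 0.00209). CCNB1, the cyclin that drives mitotic entry, was at 135 and 145 FPKM in NC and at 55.6 and 67.9 FPKM in mimics (log2 change -1.18, adjusted p = 0.00187). MKI67, the proliferation marker, was at 39.0 and 32.1 FPKM in NC and at 13.2 and 16.4 FPKM in mimics (log2 change -1.24, adjusted p = 0.00278). In bulk RNA, fewer cells of a kind and less RNA per cell cannot be told apart. Without NC replicate 1, 4 of the 48 passed, and without NC replicate 2, 23 passed.

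DNA replication genes fell less evenly: 11 of 44 passed as lower and none as higher, with a median log2 change of -0.43. The 44 lay at a median of -0.60 in mimics replicate 1 and -0.24 in replicate 2. DBF4, which activates the origin-firing kinase CDC7, was at 18.7 and 17.9 FPKM in NC and at 9.77 and 9.76 FPKM in mimics (log2 change -0.87, adjusted p = 0.00356). TYMS, which makes thymidylate, was at 138 and 145 FPKM in NC and at 74.4 and 96.8 FPKM in mimics (log2 change -0.74, adjusted p = 0.0146). CCNE2, a cyclin of S-phase entry, fell by 0.72 in log2 units (adjusted p = 0.0186). The count was 38 without mimics replicate 2, 10 without mimics replicate 1, 6 without either OE library, 1 without NC replicate 2 and 0 without NC replicate 1, and 19 with the mitochondrial rows left out of the scaling. Of 13 tested replication-dependent histone genes, HIST2H2AC fell by 0.90 on the log2 scale and HIST3H2A rose by 0.64.

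Sterol synthesis and uptake genes formed the next large group of falls, with 16 of 26 lower and none higher, and a median log2 change of -0.76. HMGCS1, the synthase at the entry of the pathway, was at 57.5 and 51.2 FPKM in NC, 40.2 and 37.7 FPKM in OE and 18.3 and 19.9 FPKM in mimics (log2 change -1.48, adjusted p = 0.000422). SQLE, squalene epoxidase, was at 21.5 and 23.1 FPKM in NC, 13.8 and 13.2 FPKM in OE and 11.8 and 6.93 FPKM in mimics (log2 change -1.25, adjusted p = 0.0102). The OE libraries thus lay between NC and mimics for these genes. The median log2 change of the list was -0.34 in OE against NC and -0.33 in mimics against OE, where 5 of the 26 passed as lower. Without NC replicate 1 or NC replicate 2, 2 of the 26 passed, and in the other fits that left out a library 15 to 21 did.

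Of 31 tested genes of fatty acid synthesis and oxidation, SCD and FADS1 fell and SLC25A20 rose. Over all annotated genes 4.06% fell and 4.5% rose, so these counts were near the background. SCD, the desaturase that makes oleic acid, was at 114 and 122 FPKM in NC, 55.1 and 57.5 FPKM in OE and 65.1 and 34.8 FPKM in mimics (log2 change -1.30, adjusted p = 0.0147). SLC25A20, the mitochondrial carnitine carrier, was at 11.2 and 12.1 FPKM in NC and at 17.2 and 22.8 FPKM in mimics (log2 change 0.74, adjusted p = 0.0206). Neither gene differed from OE past the threshold (adjusted p = 0.566 and 0.192).

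Chaperones of the endoplasmic reticulum (ER) were lower, with 9 of 30 genes of the unfolded protein response list falling and none rising (median log2 change -0.27). DERL3, a component of ER-associated degradation, was at 9.98 and 11.3 FPKM in NC and at 5.64 and 2.69 FPKM in mimics (log2 change -1.33, adjusted p = 0.0197). CRELD2 fell by 0.59 in log2 units (adjusted p = 0.0143) and PDIA4, a disulfide isomerase, by 0.58 (adjusted p = 0.0171). HSPA5, the abundant ER chaperone BiP, was at 254 and 281 FPKM in NC and at 193 and 168 FPKM in mimics (log2 change -0.57, adjusted p = 0.0254). None of the 30 passed without NC replicate 1 or without NC replicate 2, 6 passed without either OE library, and 11 or 12 passed without either mimics library. Of 33 genes of amino acid supply and ATF4, the transcription factor of amino acid stress, 2 fell, where 4.06% of all annotated genes did. They were PHGDH and PSAT1, the enzymes of the first steps of serine synthesis. On the log2 scale they fell by 0.79 (limma adjusted p = 0.0387) and 0.48 (adjusted p = 0.0425). None of 32 cytosolic heat shock and chaperonin genes and none of 33 proteasome genes passed, where 8.56% of all annotated genes did in either direction.

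Hypoxia response genes were the list with the most rises for its size, 18 of 23 tested and none lower. Their median log2 change was 1.01. Since the lists were chosen with earlier results known, this ranking is a description only. BHLHE40, counted among the 18, reached the minimum of 0.5 FPKM only through the mimics libraries. The same list had 20 of 23 higher than in OE. ADM, the vasodilator peptide adrenomedullin, was at 0.88 and 1.34 FPKM in NC, 0.775 and 0.863 FPKM in OE and 13.5 and 9.02 FPKM in mimics (log2 change 2.86, adjusted p = 0.00053). VEGFA, the angiogenic growth factor, was at 24.5 and 23.8 FPKM in NC and at 72.4 and 69.7 FPKM in mimics (log2 change 1.54, SE 0.09, adjusted p = 0.000206). DDIT4, an inhibitor of the growth kinase mTORC1, was at 30.7 and 36.7 FPKM in NC and at 139 and 107 FPKM in mimics (log2 change 1.85, adjusted p = 0.00053). Both libraries of mimics lay above all other libraries for these genes.

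Of the genes of oxygen sensing and response named next, only HIF1A did not rise in both mimics libraries. EGLN3, the oxygen sensor whose UTR holds an 8mer, was at 1.78 and 1.92 FPKM in NC and at 5.65 and 6.01 FPKM in mimics, a log2 change of 1.43, and BNIP3, a receptor of mitophagy, was at 15.7 and 18.1 FPKM in NC and at 60.4 and 40.8 FPKM in mimics, a log2 change of 1.53. HIF1A, the oxygen-regulated transcription factor, whose own protein is controlled mainly by its stability, was at 45.4 and 37.5 FPKM in NC and at 69.5 and 34.7 FPKM in mimics, so the mimics libraries fell on both sides of NC. All 4 genes that rose among 22 tested integrin, laminin and collagen-modifying genes, P4HA1, P4HA2, PLOD1 and PLOD2, encode collagen hydroxylases. P4HA1 was at 16.0 and 16.7 FPKM in NC and at 47.1 and 43.3 FPKM in mimics (log2 change 1.44, adjusted p = 0.000422). Of the hypoxia list, 6 passed without NC replicate 1 and 11 without NC replicate 2, and 16 to 22 passed in the other fits that left out a library.

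Among 34 glycolysis and pyruvate genes, 11 rose and 1 fell, with a median log2 change of 0.21. The strongest were regulators rather than enzymes of the main path. PDK4, which switches off pyruvate dehydrogenase, was at 13.9 and 11.6 FPKM in NC and at 150 and 81.9 FPKM in mimics (log2 change 3.08, adjusted p = 0.00053). PFKFB4 and PFKFB3, which set the level of the glycolytic activator fructose 2,6-bisphosphate, rose by 1.92 (adjusted p = 0.000206) and 1.29 (adjusted p = 0.000881) on the log2 scale. PFKFB4 was at 5.62 and 6.02 FPKM in NC, 2.76 and 2.92 FPKM in OE and 23.9 and 22.7 FPKM in mimics, and shares exon bases on its strand with UCN2. The muscle and brain aldolases rose as well, ALDOA from 530 and 633 to 1050 and 881 FPKM and ALDOC from 29.6 and 30.8 to 90.9 and 53.5 FPKM. The 1 fall was DLAT, a subunit of pyruvate dehydrogenase, at -0.43 on the log2 scale. Without NC replicate 1, 3 of the 34 rose, and without NC replicate 2, 6 did.

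**Figure D5:**
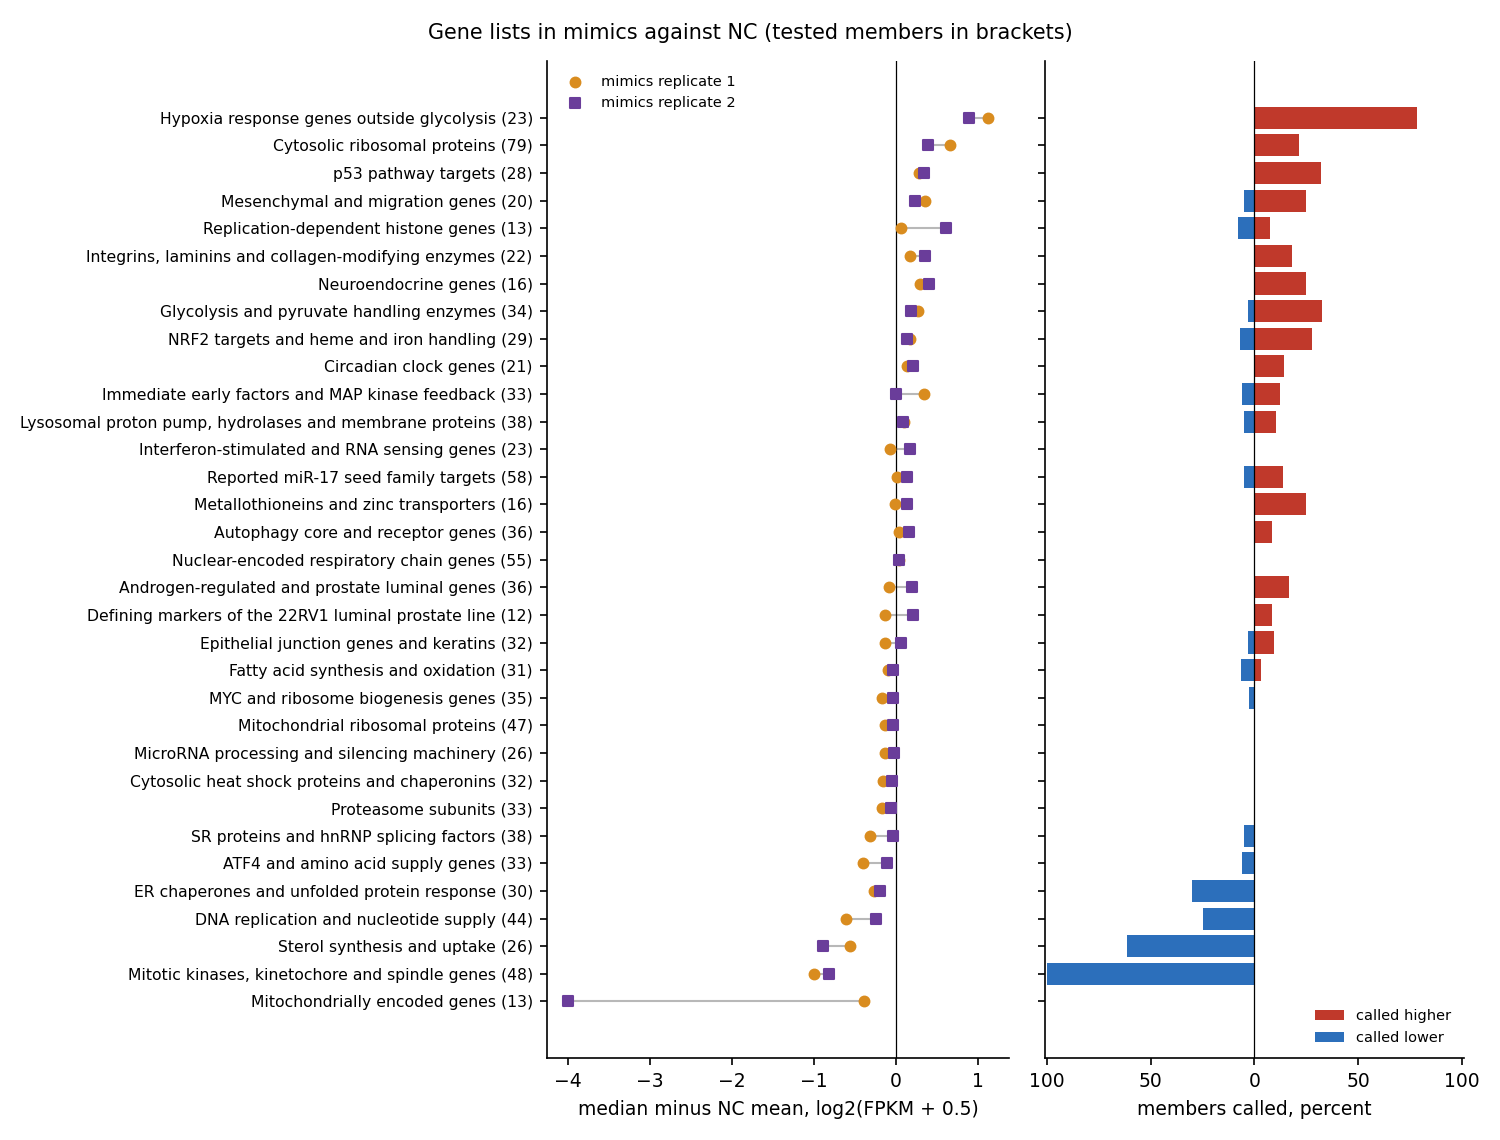
Median change of each gene list against the NC mean in mimics replicate 1 and replicate 2 (left, x axis in log2 units), and the percent of its tested members called higher or lower (right). All 48 mitotic genes were lower and 18 of 23 hypoxia genes higher, and the mitochondrially encoded genes differ most between the libraries.

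Targets of p53, the stress-activated transcription factor, rose in 9 of 28 genes and fell in none, with a median log2 change of 0.31. GDF15, a stress cytokine, was at 48.1 and 54.0 FPKM in NC, 59.0 and 67.9 FPKM in OE and 209 and 208 FPKM in mimics (log2 change 2.02, SE 0.11, adjusted p = 0.000166). TP53INP1, a cofactor of p53 and a reported miR-17 family target, was at 6.86 and 6.49 FPKM in NC and at 21.8 and 14.7 FPKM in mimics (log2 change 1.36, adjusted p = 0.00503). GADD45A, a growth arrest protein, was at 13.8 and 14.9 FPKM in NC and at 38.3 and 27.0 FPKM in mimics (log2 change 1.14, adjusted p = 0.00547). Without NC replicate 1 or NC replicate 2, 2 of the 28 rose, and 8 to 11 did in the other fits that left out a library.

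Iron, heme and metal handling also shifted. Of 29 genes of heme and iron handling and of NRF2, the factor of the oxidative stress response, 8 rose and 2 fell. HMOX1, which breaks down heme, was at 6.14 and 6.08 FPKM in NC, 13.6 FPKM in both OE libraries and 51.3 and 40.6 FPKM in mimics (log2 change 2.80, SE 0.13, adjusted p = 4.82e-05). The ferritin subunits rose as well: FTH1 was at 680 and 746 FPKM in NC and at 1746 and 1323 FPKM in mimics (log2 change 1.09, adjusted p = 0.0098), and FTL was at 315 and 343 FPKM in NC and at 618 and 567 FPKM in mimics (log2 change 0.85, adjusted p = 0.00758). AKR1C2, an aldo-keto reductase with near-identical relatives, fell by 1.04 in log2 units (adjusted p = 0.0122), and its value is uncertain where reads of the relatives were split.

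Of 16 metallothionein and zinc transporter genes, 4 rose, all of them metallothioneins, small proteins that bind zinc and copper. MT1G was at 4.59 and 4.12 FPKM in NC and at 18.6 and 31.1 FPKM in mimics (log2 change 2.34, adjusted p = 0.00132), and MT1X was at 7.61 and 8.22 FPKM in NC and at 34.2 and 44.2 FPKM in mimics (log2 change 2.23, adjusted p = 0.000206). MT2A and MT1E rose by 1.36 and 0.99 on the log2 scale. These genes resemble each other closely, so the split of reads among them is uncertain. In the NRF2 list, 2 rose without NC replicate 1 or NC replicate 2 and 4 without either OE library, and in the metallothionein list 2 rose without NC replicate 1 or NC replicate 2.

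Of 38 lysosomal genes, 4 rose and 2 fell, where 4.5% of all annotated genes rose and 4.06% fell. GPNMB, a lysosomal glycoprotein, was at 1.31 and 1.05 FPKM in NC and at 9.72 and 6.25 FPKM in mimics (log2 change 2.31, adjusted p = 0.00141), and PSAP, the saposin precursor, rose by 0.52 (adjusted p = 0.0278). CTNS, the cystine exporter, fell from 5.39 and 5.47 FPKM to 2.58 and 2.63 FPKM (log2 change -0.93, adjusted p = 0.00621). Of 36 autophagy genes, GABARAPL1, PIK3C3 and NBR1 rose, GABARAPL1 from 2.74 and 2.62 FPKM to 9.37 and 6.75 FPKM (log2 change 1.41, adjusted p = 0.00388).

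Cytosolic ribosomal protein genes rose in 17 of 79 cases and fell in none, with a median log2 change of 0.52. The mimics libraries lay above both NC libraries for 75 of the 79, where 27.7% of all annotated genes did. RPL34 was at 234 and 270 FPKM in NC, 306 and 354 FPKM in OE and 573 and 377 FPKM in mimics (log2 change 0.88, adjusted p = 0.0298), and RPL37 was at 36.5 and 36.4 FPKM in NC and at 74.5 and 59.8 FPKM in mimics (log2 change 0.86, adjusted p = 0.00545). Against OE 1 of the 79 passed. Their share of all FPKM was 13.0% and 13.9% in NC, 14.3% and 15.4% in OE and 20.4% and 18.1% in mimics. The mitochondrial share was 9.14% and 8.29% in NC and 6.23% and 0.533% in mimics, and its link to the ribosomal share was not tested. With mitochondrial rows left out of the scaling 13 of the 79 rose. The count was 1 without NC replicate 1, 0 without NC replicate 2, 5 and 6 without either OE library, 10 without mimics replicate 1 and 69 without mimics replicate 2. With equal medians it was 8, and with quantile normalization 30. Ribosomal protein genes have many processed pseudogenes, so reads may have been split.

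Other large complexes gave few calls, where 8.56% of all annotated genes passed in either direction and 4.06% as lower. None of 47 mitochondrial ribosomal protein genes passed (median log2 change -0.08) and none of 55 nuclear genes of the respiratory chain passed (median 0.04). Of 35 MYC and ribosome biogenesis genes, TCOF1, a nucleolar factor of ribosomal RNA transcription, fell by 0.46 on the log2 scale. Of 38 splicing factors, SRSF6 and SRSF2 fell, SRSF2 from 140 and 137 FPKM to 87.6 and 104 FPKM (log2 change -0.54, adjusted p = 0.0319).

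The libraries carried the markers of a luminal prostate line. All 12 defining luminal markers, among them HOXB13 and KRT8, were above the expression minimum, and 1 of them passed. This was FOLH1, prostate-specific membrane antigen, at 115.6 and 117 FPKM in NC, 118 and 109 FPKM in OE and 191 and 222 FPKM in mimics (log2 change 0.82, adjusted p = 0.00547). Of 36 androgen-regulated genes, 6 rose and none fell (median log2 change 0.02). NDRG1, also a member of the hypoxia list, was at 29.3 and 35.2 FPKM in NC and at 86.7 and 94.8 FPKM in mimics (log2 change 1.48, adjusted p = 0.00053). TMEM45B rose by 0.83 and PLPP1, a lipid phosphatase, by 0.62 on the log2 scale.

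Of 16 tested neuroendocrine genes, which mark a lineage that treated prostate cancers can take on, 4 rose and none fell, and 12 of the 28 listed genes were under 0.5 FPKM in every library. NRN1, a neurite growth factor, was at 10.7 and 11.7 FPKM in NC and at 72.0 and 33.5 FPKM in mimics (log2 change 2.09, adjusted p = 0.00507). CHGB, a secretory granule protein, was at 3.10 and 2.48 FPKM in NC and at 7.38 and 6.84 FPKM in mimics (log2 change 1.21, adjusted p = 0.00396). SYT4 and VGF rose by 0.70 and 0.65 on the log2 scale. Without NC replicate 1 or NC replicate 2, 1 of the 16 rose.

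Of 20 tested mesenchymal and migration genes, ACTA2, ITGA5, LOX, TAGLN and SNAI2 rose and CTGF fell. ITGA5, the fibronectin receptor subunit, was at 4.23 and 4.37 FPKM in NC and at 11.2 and 8.95 FPKM in mimics (log2 change 1.13, adjusted p = 0.0043). CTGF, a matricellular protein and common readout of the YAP pathway, was at 0.737 and 0.933 FPKM in NC and at 0.309 and 0.15 FPKM in mimics (log2 change -0.88, adjusted p = 0.0371). Of 32 epithelial genes, the keratins KRT7 and KRT19 and the protease PRSS8 rose and ST14 fell. KRT7 was at 1.13 and 0.829 FPKM in NC, 2.90 and 2.97 FPKM in OE and 2.82 and 5.27 FPKM in mimics (log2 change 1.57, adjusted p = 0.00972), so both treated groups lay above NC.

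Of 33 immediate early factors and feedback genes of the MAP kinase cascade, 4 rose and 2 fell. DUSP1, a phosphatase that ends MAP kinase signals, was at 7.65 and 7.64 FPKM in NC and at 14.7 and 14.3 FPKM in mimics (log2 change 0.88, adjusted p = 0.0042). EGR3, a zinc finger factor, was at 7.22 and 8.41 FPKM in NC, 3.32 and 3.51 FPKM in OE and 3.43 and 1.16 FPKM in mimics (log2 change -1.70, adjusted p = 0.0195). Of 21 clock genes, 3 rose, among them BHLHE40 and DBP. BHLHE40, a repressor that is also induced by hypoxia, was at 0.311 and 0.42 FPKM in NC and 0.032 and 0 FPKM in OE. In mimics it was at 4.54 and 2.35 FPKM (log2 change 2.13, limma adjusted p = 0.0042). It reached the minimum mean of 0.5 FPKM only through the mimics libraries, where it is high, so its call is a description only. None of 23 tested interferon-stimulated and RNA-sensing genes passed, where 8.56% of all annotated genes did in either direction. ADAR, an RNA-editing enzyme of that list, was at 84.7 and 90.9 FPKM in NC and at 45.7 and 76.8 FPKM in mimics.

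Some of the largest falls were shared with the OE libraries. SPOCK2, an extracellular proteoglycan, was at 7.72 and 8.49 FPKM in NC, 1.59 and 1.35 FPKM in OE and 1.04 and 2.22 FPKM in mimics, and mimics differed from OE by 0.06 on the log2 scale (adjusted p = 0.912). ALB, which encodes albumin, was low in mimics alone: it was at 41.2 and 44.1 FPKM in NC, 39.9 and 38.9 FPKM in OE and 11.3 and 22.0 FPKM in mimics (log2 change -1.40, adjusted p = 0.0133). A row named MATR3, at 60.0 and 35.9 FPKM in NC and 8.50 and 10.1 FPKM in mimics, overlaps a second gene of the same name on the same strand, so its fall of 2.27 on the log2 scale is uncertain.

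Few markers of other cell types were measurable. TP63 and KRT5, which define basal prostate cells, were close to 0, and 2 of 8 basal markers reached the expression minimum. None of 10 endothelial markers and 1 of 12 leukocyte markers did so. Of 12 fibroblast markers 5 did, and the summed level of the list, mostly LUM, was 87.3 to 92.7 FPKM in NC and OE and 182 and 112 FPKM in mimics, while FAP and POSTN were at 0. ACTA2, smooth muscle actin and a member of that list, was at 0.97 and 1.18 FPKM in NC and at 2.74 and 3.57 FPKM in mimics. The part of such cells in the mesenchymal results was not tested.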

How the data were processed

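RNA of 22RV1 cells was measured in 6 libraries (2 NC, 2 OE, 2 mimics). The authors deposited FPKM, fragments scaled by gene length and library total, in a table of 24872 rows. Per the submitters' processing notes, HISAT2 2.0.4 and GRCh38 were used. How fragments were counted, with which annotation and whether by strand, is not given in the sources used here. FPKM holds no counts, so the depth behind a value is unknown and precision rests on the spread between libraries. FPKM sums were 402526 to 429262. Since FPKM divides by a library's total, a change in abundant transcripts moves all other values.

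From these values, limma 3.58.1 (R 4.3.3) was fitted to log2(FPKM + 0.5) for the 13998 rows whose mean reached 0.5 FPKM (12360 annotated, 1638 new genes), with all 6 libraries, an intensity trend, two-sided tests and Benjamini-Hochberg adjustment over all rows at a threshold of 0.05. The groups shared 3 residual and 5.67 prior degrees of freedom. Fold changes on this scale understate those of low genes. The smallest p an exact permutation test of 2 against 2 libraries can give is 0.333. The fit was tested on simulated data with 200 changed rows.

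Seed matches were searched in the 3′ UTR of the principal GENCODE 29 transcript, which need not be the transcript these cells use. All 19974 annotated IDs were found there. The members, 37 gene lists (1157 symbols, 3 not matched) and the tests were chosen with earlier results of these data known. Named genes, among those that passed and whose NC and mimics libraries did not overlap, were those with the 10 largest rises and falls in FPKM, the 6 largest in log2 change at 5 FPKM or more, the 6 largest falls with an 8mer, and up to 4 passing members per list (the 2 largest changes where none passed). RAB31 and MAGI2 were named as genes of the study. All other genes named were chosen after their values were seen. Overlap of exons was recorded from 30 shared bases. In total 18 alternative settings were tried. A few named genes are not reported here.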

Additional observations from a re-analysis of the deposited data

Results flagged for a closer look

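Outside the annotated genes, 44 of 1638 tested rows that the authors named as new genes were higher in mimics than in NC, and 18 were lower. These rows carry no symbol and were used in no comparison beyond the adjustment of p-values. What they hold was not analysed here.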

How the results depend on the processing

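The counts of genes higher and lower (556 and 502) stayed within 1.5 times with other pseudocounts, a minimum of 2 FPKM, quantile normalization, equal medians, no intensity trend, and scaling without mitochondrial and ribosomal protein rows. They were 46 and 31 with no filter on FPKM, 367 and 772 with mitochondrial rows left out of the scaling, and 291 and 278 with only the NC and mimics libraries. Leaving out 1 library gave 40 to 1136 higher and 25 to 1688 lower. A setting chosen after seeing the data, the scaling without mitochondrial rows and without mimics replicate 2, gave 781 higher and 2330 lower. The difference in median log2 change between 8mer genes and genes without a match was 0.02, turned to -0.0024 with quantile normalization, and ran from -0.026 (without NC replicate 2) to 0.067 (without NC replicate 1) when 1 library was left out, with -0.01 without mimics replicate 1. The cause was not tested.

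A replicate block gave 450 higher and 446 lower. The replicate numbers were not taken to pair the libraries: deviations from group means of same-numbered libraries correlated at 0.153 for NC with OE, -0.0268 for NC with mimics and 0.0194 for OE with mimics. Of 110 named genes that passed, 98 kept their call under the block, and all kept their direction in every setting that tested them. The block, the fit without an intensity trend and the fits that left out OE libraries could not change a direction, since they keep the group means. With 2 libraries a group, FPKM without counts limits every value of a low gene.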
